A study of Arabidopsis thaliana with 10 samples.

Results

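The REVEILLE (RVE) genes RVE1, RVE2, RVE7, RVE4, RVE6 and RVE8 and the LNK genes LNK1, LNK2, LNK3 and LNK4 were followed in Arabidopsis seedlings exposed to jasmonic acid (JA). These 10 genes were chosen by their identifiers, with earlier results of these data known, among the 32833 genes of each deposited table. All 10 passed the filter on low counts in every comparison. RNA-seq was carried out on total RNA from whole seedlings of 10-day-old wild-type plants (Col-0), raised on agar medium with sucrose in long days and carrying no mutation or transgene. The JA groups were exposed for 2 h to gaseous methyl jasmonate (MeJA), the volatile ester of JA, in a closed container, and the ctrl groups were untreated. There were 2 experiments, with 2 ctrl and 2 JA libraries in Set1 and 3 ctrl and 3 JA libraries in Set2, which the study describes as biological replicates. The sources used here do not give the hour of harvest of any group, so for genes of the clock a response to JA and a difference in hour of harvest cannot be told apart.

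RVE proteins are MYB-type transcription factors related to CCA1 and LHY, the morning-expressed repressors at the core of the plant circadian clock. RVE4, RVE6 and RVE8 activate genes that peak in the afternoon and evening through a promoter sequence called the evening element, and LNK proteins have no DNA-binding domain of their own and act as their coactivators. RVE1, RVE2 and RVE7 form another branch of the family, whose best known member, RVE1, links the clock to auxin levels. In seedlings most of these genes are known to peak around dawn or in the morning, whereas RVE2 and RVE7 have less well defined roles.

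Exposure to JA was visible in every JA library. MYC2, the transcription factor that leads JA responses, averaged 18.9 CPM in Set1 ctrl and 248.3 CPM in Set1 JA seedlings, where CPM is the count scaled to a common library total after TMM normalization. Its combined log2 difference, from a fit of all 10 libraries with the set as a covariate, was 3.60 (SE 0.32, edgeR quasi-likelihood adjusted p = 1.99e-05). The JA repressor gene JAZ9 and the JA synthesis gene LOX2 rose by 4.74 and 3.09 on the same scale. Library totals were 12147941 to 17200426 expected counts in Set1 and 6333822 to 7774547 in Set2. Plastid transcripts took 13.8% and 11.4% of the replicate 1 libraries of Set1 (ctrl and JA), against 1.87% and 0.684% of replicate 2. In Set2 they took 2.61% of JA replicate 1 and 0.121% to 0.377% of the other 5 libraries. All 3 shoot markers and all 4 root markers had counts in every group, with summed root levels of 23.5 to 48.8 CPM over the libraries. Summed shoot levels were 43980 to 45120 CPM in Set1 ctrl and 32950 to 34310 CPM in Set1 JA, without overlap, and 21610 to 25650 CPM and 17670 to 24240 CPM in Set2, which overlap. In Set1 the shoot markers RBCS1A and LHCB1.3 and the root markers CASP1 and COBL9 were lower in every JA library, by log2 differences of -0.38, -0.47, -0.65 and -0.78, of which LHCB1.3 passed the adjusted p (0.0407) short of 2-fold. Of these 7 markers only NRT2.1, a nitrate transporter gene of roots, was called in the combined fit (log2 difference 2.24, SE 0.28, adjusted p = 0.00026), and the part of these markers in the results for the members was not tested. In such whole seedlings fewer cells of a type and less RNA per cell cannot be told apart.

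JA was followed by lower levels of most RVE and LNK genes. A gene was called when its Benjamini-Hochberg adjusted p over all genes tested was at most 0.05 and its change at least 2-fold. In Set1, 7 of the 10 members were called lower (RVE1, RVE7, RVE4, RVE8, LNK2, LNK3 and LNK4), where 2.20% of 20098 genes tested were called lower and 2.94% higher. In Set2, 5 members were called lower (RVE1, RVE8, LNK2, LNK3 and LNK4), where 0.758% of 19259 genes were called lower and 1.78% higher. The combined fit called 6 members lower (RVE1, RVE4, RVE8, LNK2, LNK3 and LNK4), against 1.40% of 20213 genes called lower and 2.63% higher. No member was called higher in any of these comparisons. The median log2 difference of the members was -1.71 in Set1. It was -1.0 in Set2 and -1.26 with both sets together, beside -0.02, 0.01 and 0.01 over all genes tested. For 7 members (RVE1, RVE4, RVE8 and all 4 LNK genes) every JA library lay below every ctrl library in both sets, which held for 7.10% of all genes tested. Since the members were chosen with earlier results of these data known, none of these counts or medians is a test of the group.

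**Figure D1:**
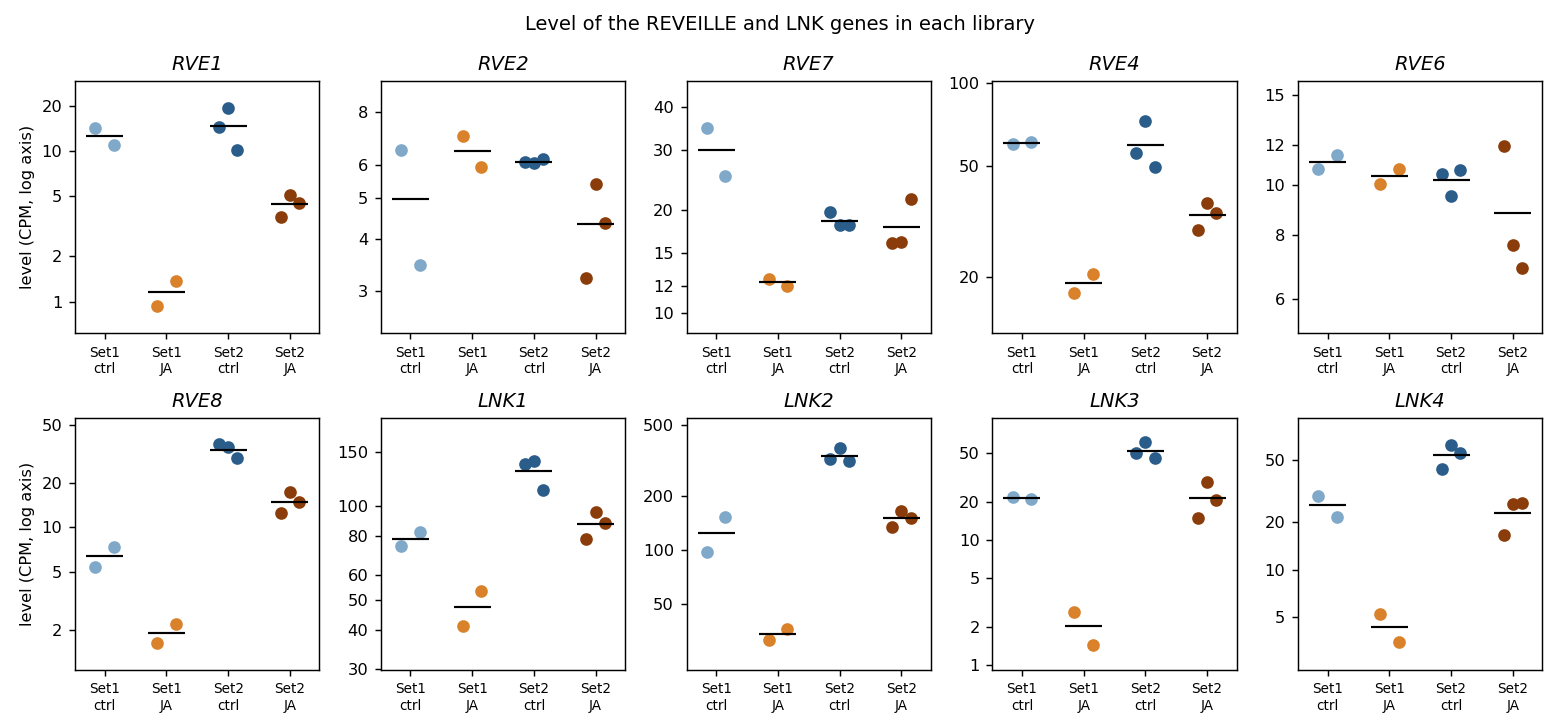
Level of each RVE and LNK gene in each of the 10 libraries, in CPM on a log axis with its own range in each panel. Points are libraries (2 per group in Set1, 3 in Set2) and bars are group means. The JA points lie below the ctrl points of their set in 7 of the 10 panels, and RVE2, RVE6 and RVE7 are the exceptions.

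The sequences around the starts of the members were read because several of these genes moved together. The positions and letters are those of the RefSeq annotation of TAIR10.1, in which 99.3% of 21304 genes with 1 transcript had the same length as in the deposited tables, aligned to TAIR10. Windows ran from 250 bases before to 50 bases after the annotated start of each gene, and 3 motifs were searched on both strands: the G-box CACGTG, a site bound by MYC2 and by light-signalling factors, the evening element AAAATATCT and the related CCA1-binding site AAAAATCT. The G-box is its own reverse complement, and no match overlapped another in the windows of the members. A G-box was found in the windows of 6 of the 10 members and in 7.68% of all 27443 windows. RVE1, RVE2, RVE8, LNK1 and LNK2 had 1 G-box each, shown here with 12 bases on either side and in capitals, 5′ to 3′ on the strand of the gene.
RVE1, chr5:5693086-5693115, minus strand, box starting 111 bases before the start: gagaaagagcgaCACGTGgcaaagatggac
RVE2, chr5:14753234-14753263, minus strand, box starting 163 bases before the start: gaagaaatcctcCACGTGtcattagcatct
RVE8, chr3:2946238-2946267, plus strand, box at base 12 of the transcript: actacaagtctaCACGTGcttcaagcttga
LNK1, chr5:25676808-25676837, minus strand, box starting 2 bases before the start: tgatttagttgcCACGTGttgatatcatgg
LNK2, chr3:20179029-20179058, minus strand, box at base 25 of the transcript: ccactcgtttggCACGTGaccatttcatac

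LNK3 was the only member with more than 1 G-box in these windows, at positions -171 and -141 relative to its start. The whole 250 bases upstream of LNK3 (plus strand, chr3:3923265-3923514) are shown because its change in Set1 was as large as that of RVE1, with both boxes in capitals.
LNK3: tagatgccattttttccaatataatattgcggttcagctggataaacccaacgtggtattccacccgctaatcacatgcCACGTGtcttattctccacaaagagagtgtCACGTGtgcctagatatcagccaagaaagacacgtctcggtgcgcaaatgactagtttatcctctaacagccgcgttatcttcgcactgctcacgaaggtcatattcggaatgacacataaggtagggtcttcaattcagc

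The windows of RVE4 and LNK4, both lower after JA, held none of the 3 motifs. An evening element was found in 1 member, RVE7, whose 30 bases (minus strand) are shown with the element in capitals, against 2.82% of all windows.
RVE7, chr1:6308274-6308303: taatcacaaaAAAATATCTtcttcataatt
The CCA1-binding site was found in RVE2 and RVE6, and in 7.88% of all windows. RVE2 and LNK1 each carried a G-box and were not called in any comparison of JA with ctrl, though the LNK1 groups did not overlap in either set. Whether the motif has a part in the lower levels was not tested. With windows reaching 1000 bases before the start, the same members held each motif and RVE8 had 3 G-boxes (at -888, -814 and 12), while 15.9%, 7.65% and 22.1% of all windows then held the G-box, the evening element and the CCA1-binding site.

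**Figure D2:**
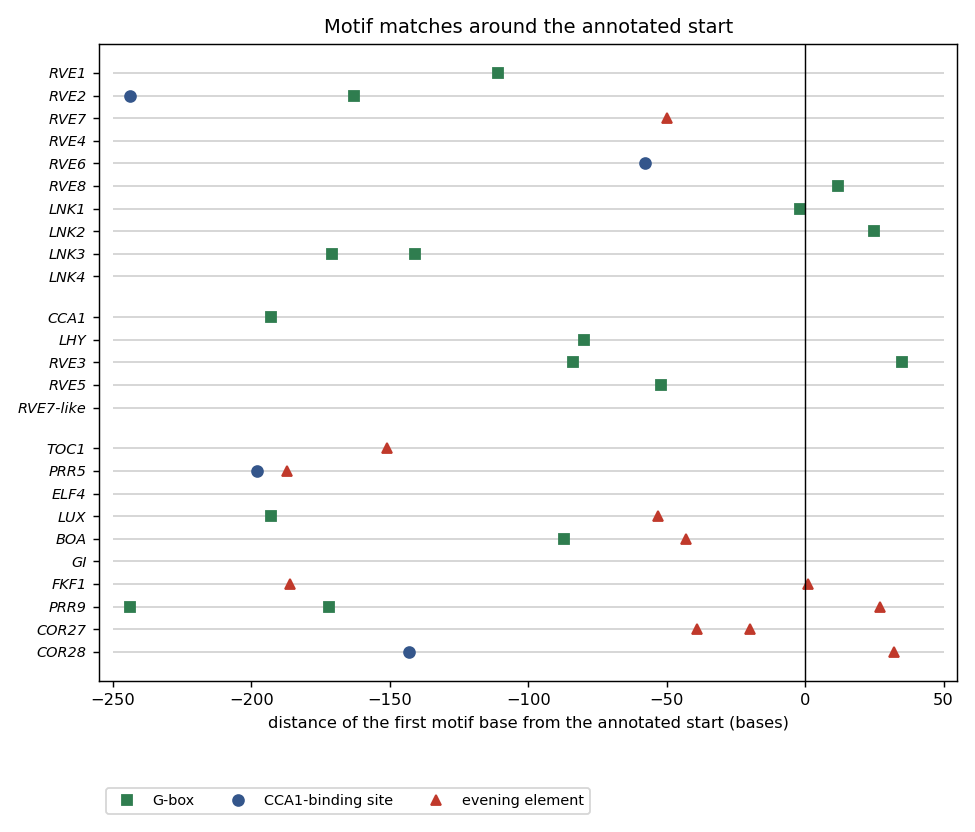
Positions of the 3 motifs around the annotated start of the RVE and LNK genes (top), other RVE-type MYB genes (middle) and evening-phased targets (bottom). The x axis is the distance of the first motif base from the start, in bases, and each grey line is 1 window. G-boxes (squares) mark 6 of the 10 members, 4 of the 5 other RVE-type MYB genes and 3 of the 10 evening-phased targets. Evening elements (triangles) mark 1 member and 8 of the 10 evening-phased targets.

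RVE1 (AT5G17300, chromosome 5, 5690225 to 5692992, minus strand) had the largest combined decrease of the 10 members. In Set1 it was at 14.4 and 11.0 CPM in the ctrl libraries and at 0.936 and 1.38 CPM in the JA libraries. In Set2 it was at 14.4, 19.3 and 10.2 CPM in ctrl and at 3.66, 5.11 and 4.50 CPM in JA. The groups did not overlap in either set, and the Set1 JA libraries were the lowest of all. RVE1 fell 10.9-fold in Set1 (log2 difference -3.45, SE 0.31, adjusted p = 0.00136) and 3.33-fold in Set2 (-1.74, SE 0.26, adjusted p = 0.00527). The Set1 JA level rests on 12 and 23 counts. On the log2(TPM + 1) scale, which understates the change of low genes, the Set1 difference was -2.16.

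RVE2 (AT5G37260, also called CIR1, chromosome 5, 14751344 to 14753088, minus strand) was not called in any comparison of JA with ctrl. Its Set1 levels were 6.49 and 3.47 CPM in ctrl and 7.02 and 5.92 CPM in JA, which overlap. Its Set2 levels were 6.08, 6.04 and 6.19 CPM in ctrl and 3.23, 5.38 and 4.36 CPM in JA, so all 3 JA libraries were lower. The log2 difference was 0.35 (SE 0.34) in Set1 and -0.51 (SE 0.25, adjusted p = 0.325) in Set2. RVE2 was the only member with a positive difference in Set1, and that sign turned when Set1 ctrl replicate 2 was left out (-0.03).

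RVE7 (AT1G18330, named EPR1 in the annotation, chromosome 1, 6305814 to 6308243, minus strand) was called lower after JA in Set1 and not in Set2. Set1 levels were 34.8 and 25.2 CPM in ctrl and 12.6 and 12.02 CPM in JA, with no overlap. Set2 levels were 19.7, 18.1 and 18.1 CPM in ctrl and 16.0, 16.1 and 21.5 CPM in JA, where the highest library of all 6 was a JA library. The log2 difference was -1.30 (SE 0.21, adjusted p = 0.0144) in Set1 and -0.07 (SE 0.14, adjusted p = 0.849) in Set2. Without JA replicate 1 of Set1 the difference was -1.30 (adjusted p = 0.0533) and without JA replicate 2 it was -1.27 (adjusted p = 0.0696), so the call rested on both, and over 11 alternatives the adjusted p ran from 9.68e-05 to 0.549. In 8 of the 10 libraries RVE7 had a fractional count (tolerance 0.001), as RSEM gives where reads are shared with another gene. The listed gene RVE7-like (AT3G10113) also had fractional counts. It was at 1.11 and 10.9 CPM in Set1 ctrl, where RVE7 was at 34.8 and 25.2 CPM. How far the level of RVE7 in a library depends on such sharing was not tested.

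RVE4 (AT5G02840, LCL1 in the annotation, chromosome 5, 648648 to 651979, plus strand) was the most abundant RVE gene in every group. Set1 levels were 59.98 and 61.1 CPM in ctrl and 17.5 and 20.5 CPM in JA. Set2 levels were 56.0, 72.6 and 49.8 CPM in ctrl and 29.6, 37.0 and 33.9 CPM in JA. Neither set showed an overlap of the groups, and the ctrl levels of the 2 sets were much alike. RVE4 fell 3.22-fold in Set1 (log2 difference -1.69, SE 0.17, adjusted p = 0.00242). The Set2 difference of -0.83 (SE 0.15, adjusted p = 0.0149) passed the adjusted p but was 1.78-fold, short of 2-fold.

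RVE6 (AT5G52660, chromosome 5, 21359001 to 21362273, minus strand), a close relative of RVE4 and RVE8, was the most even of the 10 genes. Its Set1 levels were 10.8 and 11.5 CPM in ctrl and 10.1 and 10.8 CPM in JA. Its Set2 levels were 10.5, 9.53 and 10.7 CPM in ctrl and 11.9, 7.67 and 6.90 CPM in JA. The groups overlapped in both sets, and the spread was widest in Set2 JA. The combined log2 difference was -0.16 (SE 0.15, adjusted p = 0.548), and the Set1 difference of -0.11 took a small positive value with library totals only or on a TPM scale.

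RVE8 (AT3G09600, chromosome 3, 2946239 to 2949017, plus strand), the activator most studied with the LNK proteins, fell in both sets from very different ctrl levels. Set1 levels were 5.38 and 7.39 CPM in ctrl and 1.64 and 2.21 CPM in JA. Set2 levels were 36.7, 35.4 and 29.6 CPM in ctrl and 12.5, 17.4 and 14.9 CPM in JA. Groups did not overlap within a set, yet every Set2 JA library lay above every Set1 ctrl library. The log2 difference was -1.74 (SE 0.34, adjusted p = 0.029) in Set1 and -1.19 (SE 0.15, adjusted p = 0.00208) in Set2, and the combined value was -1.35 (SE 0.15, adjusted p = 0.000118). The Set1 call rested on 21 to 83 counts per library and was lost without ctrl replicate 2 (-1.49, adjusted p = 0.0863), JA replicate 1 (-1.51, 0.121) or JA replicate 2 (-1.98, 0.0609), with an adjusted p of 0.0029 to 0.276 over 11 alternatives.

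LNK1 (AT5G64170, chromosome 5, 25672466 to 25676823, minus strand) changed least among the LNK genes. Set1 levels were 74.8 and 82.6 CPM in ctrl and 41.2 and 53.5 CPM in JA. Set2 levels were 136.9, 139.4 and 112.9 CPM in ctrl and 78.5, 96.1 and 88.7 CPM in JA. All JA libraries lay below the ctrl libraries of their set. The combined log2 difference of -0.63 (SE 0.11, adjusted p = 0.00189) was 1.55-fold and was not called, and the Set1 difference of -0.75 had an adjusted p of 0.0728. LNK1 had fractional counts in all 10 libraries, and LNK2 in 5.

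LNK2 (AT3G54500, chromosome 3, 20175370 to 20179070, minus strand) was the most abundant member in Set2. Set1 levels were 98.0 and 152.4 CPM in ctrl and 31.5 and 36.2 CPM in JA. Set2 levels were 323.2, 372.8 and 314.6 CPM in ctrl and 134.0, 165.8 and 151.5 CPM in JA. The groups stood clear of each other in both sets, with a wide gap between the ctrl libraries of Set1. LNK2 fell 3.75-fold in Set1 (log2 difference -1.91, SE 0.25, adjusted p = 0.00634) and 2.25-fold in Set2 (-1.17, SE 0.13, adjusted p = 0.00114).

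LNK3 (AT3G12320, chromosome 3, 3923515 to 3925502, plus strand) and LNK4 are shorter relatives of LNK1 and LNK2. LNK3 was at 22.1 and 21.3 CPM in Set1 ctrl and at 2.65 and 1.44 CPM in Set1 JA. In Set2 it was at 49.4, 60.8 and 45.1 CPM in ctrl and at 14.9, 28.9 and 20.8 CPM in JA. The fall was deep in both Set1 JA libraries and less so in Set2, where JA replicate 2 stayed highest. LNK3 fell 10.9-fold in Set1 (log2 difference -3.45, SE 0.30, adjusted p = 0.00117), where the JA libraries held 34 and 24 counts. In Set2 the difference was -1.27 (SE 0.22, adjusted p = 0.01), and without ctrl replicate 2 it was -1.15 (adjusted p = 0.0538, range over 13 alternatives 4.09e-07 to 0.0538).

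LNK4 (AT5G06980, chromosome 5, 2167120 to 2169437, plus strand) followed LNK3 with a smaller change. Set1 levels were 29.6 and 21.8 CPM in ctrl and 5.22 and 3.47 CPM in JA. Set2 levels were 43.5, 61.8 and 55.7 CPM in ctrl and 16.6, 26.1 and 26.4 CPM in JA. The groups were separate in both sets, and the lowest Set2 JA library was replicate 1. That library was also the lowest Set2 JA library for every other member except RVE6, where it was the highest. This is the Set2 library with 2.61% plastid transcripts, and the Set2 calls of RVE1, RVE8, LNK2, LNK3 and LNK4 held without it. LNK4 fell 6.03-fold in Set1 (log2 difference -2.59, SE 0.28, adjusted p = 0.00269) and 2.35-fold in Set2 (-1.23, SE 0.19, adjusted p = 0.00719).

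Genes that overlap members on the opposite strand (AT5G17305 with RVE1, AT5G64160 with LNK1, AT3G08405 and AT3G54490 with LNK2, AT3G12340 with LNK3) or on the same strand (AT5G06990 with LNK4) make those counts uncertain, since it is not stated whether the counting used strand.

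Since the members' differences looked larger in Set1 than in Set2, the difference between the sets was tested with a set by JA interaction. The question came from the same values that the test uses, so its result for the members is no independent support. In edgeR without a replicate block, 0 of 20213 genes passed this test, with 1438 genes (7.11%) at an unadjusted p of at most 0.05. A block for the replicate number brought this to 61 genes, leaving out the filter to 79 and keeping nuclear genes only to 6, while DESeq2 passed 148 and limma on log2 TPM passed 1. Among the members, 6 of 10 (RVE1, RVE7, RVE4, LNK2, LNK3 and LNK4) had an unadjusted p of at most 0.05. LNK3 had the largest interaction, 2.16 on the log2 scale (SE 0.41, adjusted p = 0.149), meaning a smaller decrease in Set2. Under the block, LNK3 (2.15) and LNK4 (1.34) each passed with an adjusted p of 0.0247. Over 17 alternatives the adjusted p ran from 0.000117 to 0.467 for LNK3 and from 0.0247 to 0.999 for LNK4. DESeq2 passed RVE7, LNK3 and LNK4. For RVE1 the interaction was 1.69 (SE 0.43, adjusted p = 0.294) and for RVE7 1.22 (SE 0.25, adjusted p = 0.195). RVE8 (0.52, SE 0.30) and LNK1 (0.17, SE 0.22), though also lower in both sets, had an unadjusted p above 0.05.

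**Figure D3:**
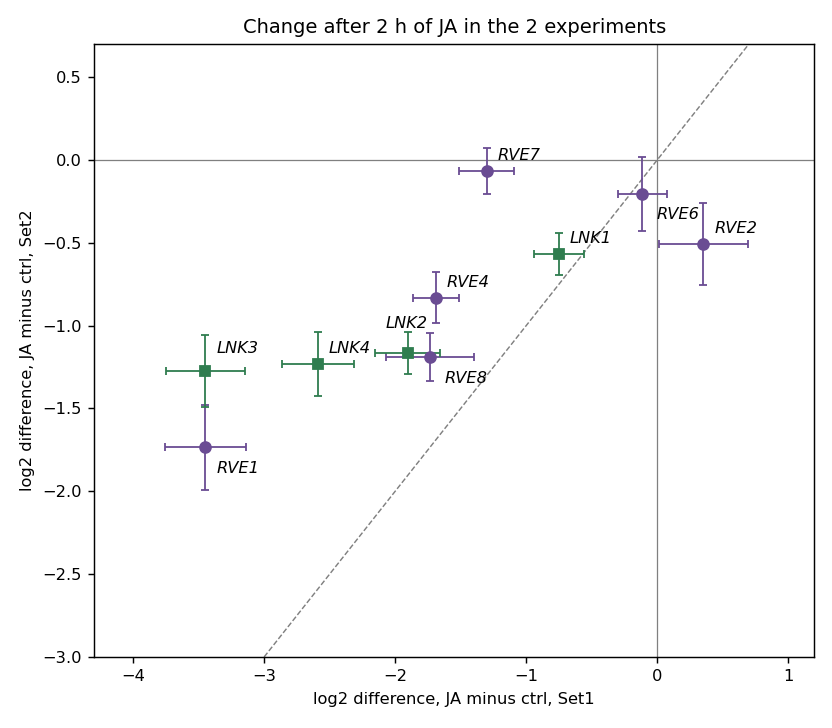
Log2 difference (JA minus ctrl) of each member in Set1 (x axis) and Set2 (y axis), with SE as bars, circles for RVE and squares for LNK genes. The dashed line marks equal differences. LNK3 and RVE1 lie farthest from the line at -3.45 in Set1, while RVE6 and LNK1 lie close to it.

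The untreated seedlings of the 2 sets differed in several members before any exposure to JA. Set2 ctrl was higher than Set1 ctrl in RVE8 (5.31-fold, log2 difference 2.41, SE 0.21, adjusted p = 8.16e-05), LNK2 (2.69-fold), LNK3 (2.38-fold) and LNK4 (2.09-fold), which is 4 of 10 members where 4.07% of all genes were called higher. LNK1 was higher by 0.72 (SE 0.16, adjusted p = 0.0103) and RVE7 lower (-0.68, SE 0.17, adjusted p = 0.0185), both short of 2-fold. LNK1 was called with library totals only (1.17, adjusted p = 0.00565), on log2(TPM + 1) (1.37, 0.0028) and on log2(TPM + 0.1) (1.39, 0.00314), with an adjusted p of 0.000167 to 0.0851 over 16 alternatives. RVE1 (0.21), RVE2 (0.29), RVE4 (-0.03) and RVE6 (-0.12) did not pass, though RVE2 was called on log2(TPM + 0.1) (1.04, adjusted p = 0.0118, range 0.0117 to 0.875). LNK4 lost its call without Set1 ctrl replicate 2 (0.85, adjusted p = 0.0871) or Set2 ctrl replicate 2 (0.95, 0.042), with an adjusted p of 0.000277 to 0.0871 over 16 alternatives. Scaling matters here, since library totals alone moved the median of all genes from 0.005 to 0.467, and RVE8 at 2.85 still stood far above that shift. Time of harvest, batch and plant material are all confounded with the set and cannot be told apart.

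Within a library, levels can be set side by side as TPM, which is scaled to transcript length. In Set2 ctrl LNK2 was highest at 237.8 TPM (SD 18.5, n = 3), clear of LNK1 at 80.6 TPM, and LNK1, LNK3, LNK4 and RVE4 followed with overlapping ranges. RVE8 (32.6 TPM) stood clear of its neighbours, and RVE7, RVE1, RVE6 and RVE2 (16.3 to 10.5 TPM) overlapped one after another. In Set1 ctrl LNK2 (58.9 TPM), RVE4 (43.2 TPM) and LNK1 (31.6 TPM) overlapped, and RVE8 was last at 4.03 TPM, overlapping RVE2. After JA the lowest place went to RVE1 in both sets, at 0.71 TPM (SD 0.34, n = 2) in Set1, overlapping RVE8, and 3.68 TPM (SD 0.44, n = 3) in Set2. Among the activators, RVE6 made up 14.3% of the summed RVE4, RVE6 and RVE8 TPM in Set1 ctrl and 32.7% in Set1 JA, with no overlap, while its own level was 7.895 and 8.005 TPM. In Set2 that share was 10.2% (8.20% to 12.24%) in ctrl and 15.8% (12.38% to 22.65%) in JA, so the ranges almost met. RVE6 itself was at 13.87 TPM in JA replicate 1 of Set2 and at 7.91 and 7.09 TPM in replicates 2 and 3, so the higher JA mean rests on replicate 1. RVE8 held 7.11% of the same sum in Set1 ctrl and 29.7% in Set2 ctrl. The share of LNK3 and LNK4 in all LNK TPM was 32.9% in Set1 ctrl (27.1% and 38.6%) and 14.02% in Set1 JA (9.96% and 18.1%), and 31.9% and 27.9% in Set2, where the ranges of 29.6% to 33.2% and 23.9% to 30.4% overlapped. These shares are given without a test.

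Genes with the most similar course were found by the root mean square difference of the log2 CPM profile over the 10 libraries, each taken relative to the ctrl mean of its set, among 18546 other genes. For RVE1 these were COL1 (AT5G15850, 0.235) and CCA1 (0.25). For LNK3 they were STH (AT2G31380, 0.2) and again COL1 (0.221). LNK2 was closest to ATSPS4F (AT4G10120, 0.118) and then to RVE8 (0.18), which was also the closest pair among the members. RVE4 was closest to PDS1 (AT1G06570, 0.128) and AT5G13770 (0.129). RVE8 was closest to AT1G52190 (0.152) and AT1G66330 (0.164), and LNK4 to AT1G23390 (0.168) and AT2G20670 (0.169). All 10 libraries enter each comparison, so the likeness includes what differs between libraries for other reasons.

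Other clock genes were counted from written lists, which were also chosen with earlier results of these data known. Of 5 other RVE-type MYB genes, 3 were called lower in the combined fit and none higher, where 1.40% of all genes were called lower and 2.63% higher. In each set alone 2 were called lower. CCA1 averaged 29.9 CPM in Set1 ctrl and 4.24 CPM in Set1 JA, and 130.1 and 40.6 CPM in Set2. Its combined log2 difference was -2.08 (SE 0.20, adjusted p = 3.84e-05), that of LHY -2.23 (SE 0.18, adjusted p = 8.63e-06) and that of RVE3 -1.80 (SE 0.39, adjusted p = 0.00917). The median of this list was -1.80, and RVE5, at -0.48, passed the adjusted p (0.00895) short of 2-fold. A G-box was found in 4 of these 5 windows (CCA1, LHY, RVE3 and RVE5), so it was not particular to the members.

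Of 10 genes listed as evening-phased targets of RVE8 and the LNK proteins, 7 were called higher and 1 lower in the combined fit, with a median of 1.84. Of all genes, 2.63% were called higher and 1.40% lower there. In Set1 alone 7 were called higher and 1 lower. In Set2 alone 4 of the 7 tested were called higher and none lower, and 1 to 5 were called higher over 13 alternatives. TOC1 (0.92) and GI (0.49) passed the adjusted p short of 2-fold. PRR5 rose by 1.89, ELF4 by 2.38, LUX by 1.45, BOA by 1.79, FKF1 by 2.47, COR27 by 5.11 and COR28 by 3.22. COR27 went from 1.12 to 44.1 CPM in Set1, but in Set2 it reached only 1.12 CPM in JA and with BOA and COR28 was too low to be tested there. PRR9, called lower (-1.66, adjusted p = 0.02), is a morning gene that stands in the list as a target, and without Set1 JA replicate 2 the list had 0 genes called lower. Evening elements were found in 8 of these 10 windows, in 3 of the 9 windows of the further clock genes below and in 2.82% of all windows. The listed genes are targets of proteins that act through this element, so their count is no test of it. A G-box was found in 3 of the 10 windows (LUX, BOA and PRR9), and LUX and BOA were called higher. Elements are shown here for 4 of the genes, in capitals as they read on the strand of the gene. For TOC1, PRR5 and the first of the COR27 elements this is the reverse complement.
TOC1, chr5:24674802-24674831: aaatatcatgAGATATTTTctccaagatga
PRR5, chr5:8358714-8358743: gattttttctAGATATTTTcttttctccac
LUX, chr3:17182979-17183008: tagaagatctAAAATATCTagctaactcgt
COR27, chr5:17199921-17199950: aAGATATTTTgcagttgaagAAAATATCTt
In the ctrl seedlings, 5 of these targets (PRR5, ELF4, FKF1, COR27 and COR28) were lower in Set2 than in Set1, where 3.44% of all genes were called lower, while RVE8, 3 LNK genes, CCA1 and LHY were higher there. That count was 3 (PRR5, ELF4 and FKF1) without Set1 ctrl replicate 1, Set2 ctrl replicate 2 or Set2 ctrl replicate 3. It was also 3 with library totals only and on log2(TPM + 1), where PRR9 was called higher. Lower levels in Set2 ctrl were not particular to the targets. Of the 9 further clock genes, 4 were called lower there and none higher, with 1 to 4 called lower over 16 alternatives. Of 9 further clock genes, PRR3 (2.54) and GRP7 (1.65) were called higher after JA in the combined fit and none lower, against 2.63% and 1.40% of all genes.

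**Figure D4:**
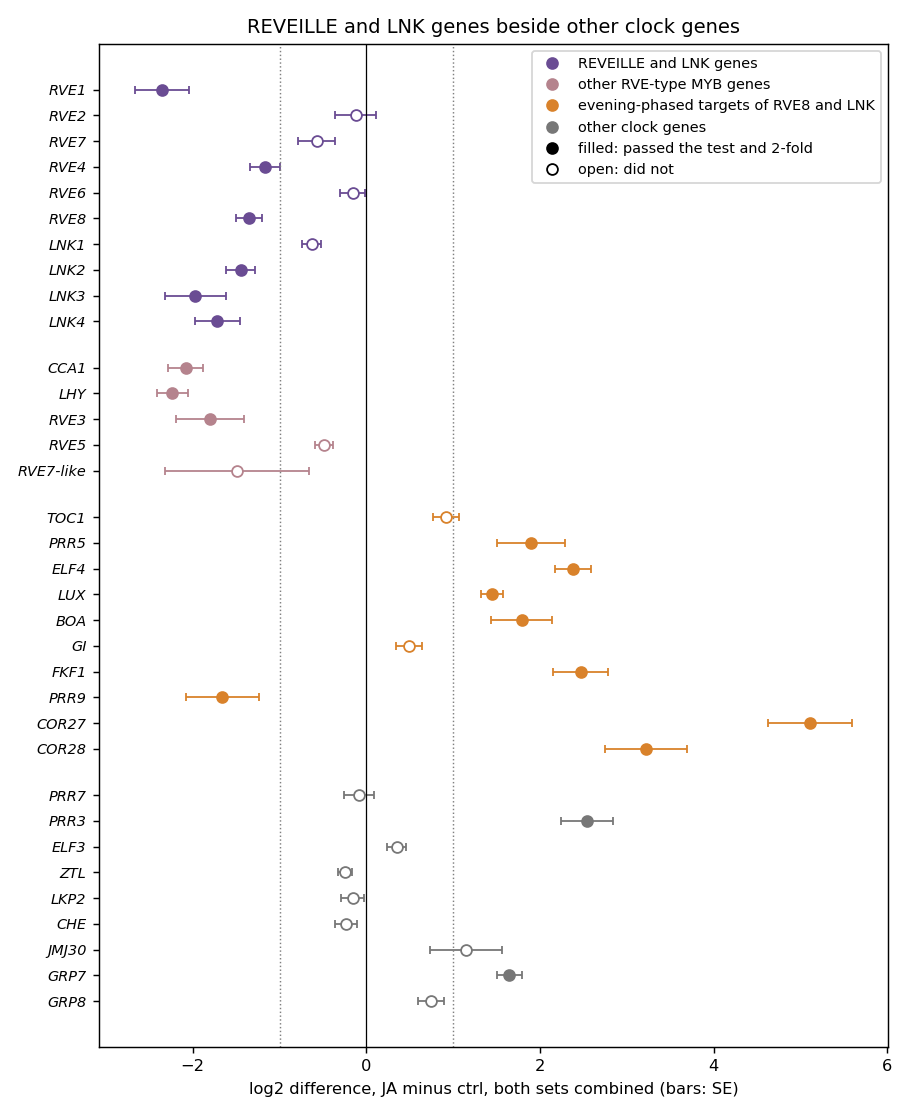
Combined log2 difference (JA minus ctrl, both sets) with its SE for the RVE and LNK genes and 3 lists of other clock genes. Filled points passed the adjusted p and 2-fold, and dotted lines mark 2-fold. All 10 members lie left of 0, as do the other RVE-type MYB genes, and 9 of the 10 evening-phased targets lie right of it.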

How the data were processed

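Total RNA of the seedlings was sequenced from stranded mRNA libraries. Reads were aligned by the authors to TAIR10 with STAR (version 2.7.5a), and they quantified transcripts with RSEM (version 1.3.3). The tables the authors deposited give, per gene, RSEM expected counts, which divide reads shared between transcripts and need not be whole. They also give TPM, which the authors scaled to effective length and to one library total. The authors' 2 edgeR tables of ctrl against JA hold fold changes and p-values and were not used. Replicate numbers follow the sample titles; the file names of the 2 Set1 ctrl libraries carry them the other way round.

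Expected counts were rounded, and R (version 4.3.3) and edgeR (version 4.0.16) were used with filterByExpr by group, TMM and the quasi-likelihood F test. Each set was fitted alone, both together with the set as covariate, then with the interaction, and the ctrl groups were compared in a fit of the 4 group means. Standard errors are the log2 difference divided by the square root of F. The threshold was an adjusted p of 0.05 and, except for the interaction, a 2-fold change. The members and lists were chosen with earlier results of these data known. The text names all 10 members, list genes called in the combined fit, MYC2, JAZ9 and LOX2, and for each member called there the 2 genes of most similar profile (log2(CPM + 0.5), average log2 CPM of at least 1). RVE5, RVE7-like, TOC1, GI and the shoot and root markers were named after their values were seen.

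Alternatives were DESeq2 (version 1.42.0), library totals only, no filter, limma (version 3.58.1) on log2(TPM + 1) and log2(TPM + 0.1), nuclear genes only, the replicate number as a block, and each library left out. Same-numbered ctrl and JA libraries deviated together across 20213 genes (r = 0.45 in Set1, 0.244, 0.254 and 0.26 in Set2), though no label states a pairing. With 2 libraries per group the Set1 r is 1 value, and replicate 1 there held more plastid transcripts in both groups. Pairing of plants and a shared difference between libraries cannot be told apart by this. The main fits were unpaired. Of the 10 symbols, 9 are listed in the annotation, and RVE6 is not.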

Additional observations from a re-analysis of the deposited data

How the results depend on the processing

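In the combined fit the call, or its absence, and the direction of every member held in 169 of 170 values from 17 alternatives, and the exception was the sign of the uncalled RVE2. The members called lower numbered 5 to 7 in Set1, 4 to 5 in Set2 and 6 in the combined fit when 1 library was left out.

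RVE7 and RVE8 lost their Set1 call with library totals only (-1.15, adjusted p = 0.0678, and -1.62, 0.0918) and in both limma fits, as they did without single libraries. The RVE7 range over 11 alternatives was 9.68e-05 to 0.549 and that of RVE8 0.0029 to 0.276. The members passing the interaction were 3 with DESeq2 (RVE7, LNK3 and LNK4), 1 without a filter (LNK3) and 2 with the replicate block. The block changed no other call of a member, and it could not be fitted to Set2 ctrl against Set1 ctrl.

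Over all genes the interaction passed 148 with DESeq2, 79 without a filter, 61 with the replicate block, 6 with nuclear genes only, 1 in either limma fit, and 0 to 9 without 1 library. Genes called lower in Set1 numbered 442, but 207 with library totals only, 166 and 179 with limma on log2(TPM + 1) and log2(TPM + 0.1), and 251 to 523 without 1 library. The share of higher calls in Set1 was 57.2%, and 71.2%, 75.3% and 74.9% in those 3 fits, where the median of all genes shifted to 0.097, 0.15 and 0.178. Genes called lower in Set2 numbered 71 to 145 without 1 library, against 146, and in the combined fit 183 with limma on log2(TPM + 1), against 282. Set2 ctrl against Set1 ctrl gave 823 higher and 695 lower (54.2% higher), but 2356 and 229 with library totals only (91.1%), 3369 and 158 on log2(TPM + 1) (95.5%) and 4511 and 175 on log2(TPM + 0.1) (96.3%), with medians of 0.467, 0.588 and 0.681.

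Signs that turned belonged to members that were not called. RVE6 in Set1 was 0.0089 with library totals only, 0.0348 on log2(TPM + 1) and 0.0411 on log2(TPM + 0.1). In the interaction, RVE8 was -0.12 on log2(TPM + 1), and LNK1 was -0.0144 and -0.0011 in the 2 limma fits. Between the ctrl groups, RVE7 was 0.0328 and 0.0347 in the limma fits, RVE4 was 0.43, 0.64 and 0.65 and RVE6 0.34, 0.47 and 0.52 in the 3 fits that shifted the median by 0.467, 0.588 and 0.681. Without 1 library the values ran from -0.0251 to 0.88 for RVE2 in Set1, -0.22 to 1e-04 for RVE7 in Set2, -0.34 to 0.0214 for RVE2 in the combined fit, and -0.40 to 0.0339 for RVE6 and -0.0222 to 0.37 for LNK1 in the interaction. Between the ctrl groups they ran from -0.044 to 0.41 for RVE1, -0.10 to 0.81 for RVE2 and -0.19 to 0.087 for RVE4. The cause was not tested. Depth limits RVE1, RVE8 and LNK3 most, at 12 to 37 counts in the Set1 JA libraries.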
